A study of Mus musculus with 4 samples.

Results

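Transcripts of 10 genes of the response to low oxygen were measured in the middle ears of mice exposed to diesel exhaust particles (DEPs) and of control mice: Hif1a, Epas1, Vegfa, Epo, Adm, Car9, Egln3, Ndrg1, Bnip3 and Ankrd37. The genes were chosen by name, as every probe of the array, control spots left out, whose RefSeq accession maps to one of these symbols. This gave 16 probes of 27655 named ones, and 10 genes of 20971 on the array. The mice were male BALB/c animals aged 6 to 10 weeks, 9 in all. Exposed mice inhaled a DEP suspension for 1 h on each of 5 days, and all mice were killed in a CO2 chamber on day 14. What the control mice inhaled is not given in the sources used here, which list their treatment as none. The temporal bone area with the middle ear was dissected, so an extract holds several tissues, and fewer cells of a type and less RNA per cell cannot be told apart. Total RNA was hybridised to 4 two-colour arrays of 1 slide, each of which compared an ear extract named as DEP (Cy5, red) with one named as control (Cy3, green). The dyes were not swapped, so a dye preference and an effect of exposure cannot be told apart. The sources used here do not say how many mice stand behind an extract, and p-values therefore measure the spread between these 4 arrays, part of which may be technical. The treatment labels list both treatments under the red channel, and the names of the RNA sources were followed.

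Cells sense oxygen through hypoxia-inducible factors (HIFs). In the presence of oxygen, prolyl hydroxylases mark the alpha subunit of a HIF, the von Hippel-Lindau protein binds it and the proteasome destroys it. When oxygen falls the alpha subunit is kept, pairs with its partner ARNT and turns on genes for glycolysis, new vessels, red cell formation and the recycling of mitochondria. Much of this control acts on protein stability, which an array of transcripts does not read, so the target genes are the usual transcript readout of the pathway. In middle ear disease, low oxygen and vascular endothelial growth factor are commonly studied together, because effusion and mucosal swelling involve leaky vessels.

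HIFs bind a short core sequence, ACGTG or GCGTG. Upstream sequence was read from RefSeq for build GRCm38.p6, as the 250 bases before each gene's start, and both strands were searched for both cores. Of the 10 genes, 8 had a window, and all 8 of these held at least 1 core in a window. The same was true of 41.5% of 27025 genes, and of 52 (72.2%) of the 72 genes with a window on the pathway lists described further on. Each core contains a CG dinucleotide, and the member windows held 5 to 24 of these against a median of 6 over all 32851 windows. The 4 windows below are shown because the results turn on these genes: Vegfa and Epo as the ligands, Egln3 with the highest mean ratio and Bnip3 with the most cores. Each runs 5′ to 3′ on the strand of the gene, the last base lies just before the start site, and capitals mark the cores, read on either strand. The windows lie at chr17:46032378-46032627 (minus strand, Vegfa), chr5:137485817-137486066 (minus strand, Epo), chr12:54203875-54204124 (minus strand, Egln3) and chr7:138909507-138909756 (minus strand, Bnip3).
Vegfa: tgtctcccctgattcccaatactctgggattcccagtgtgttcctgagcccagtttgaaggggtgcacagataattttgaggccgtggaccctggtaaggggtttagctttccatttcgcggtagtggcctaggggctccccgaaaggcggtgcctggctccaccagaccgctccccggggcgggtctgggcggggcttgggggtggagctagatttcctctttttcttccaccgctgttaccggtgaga
Epo: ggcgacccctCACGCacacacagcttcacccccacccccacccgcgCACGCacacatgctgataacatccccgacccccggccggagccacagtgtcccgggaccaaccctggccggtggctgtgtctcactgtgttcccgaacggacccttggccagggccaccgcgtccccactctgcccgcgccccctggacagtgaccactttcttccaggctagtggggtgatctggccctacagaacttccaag
Egln3: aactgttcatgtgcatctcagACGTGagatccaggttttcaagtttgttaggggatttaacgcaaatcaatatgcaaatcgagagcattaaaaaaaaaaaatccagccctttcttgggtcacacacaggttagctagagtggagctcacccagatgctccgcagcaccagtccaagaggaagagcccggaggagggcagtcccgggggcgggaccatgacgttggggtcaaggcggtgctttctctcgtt
Bnip3: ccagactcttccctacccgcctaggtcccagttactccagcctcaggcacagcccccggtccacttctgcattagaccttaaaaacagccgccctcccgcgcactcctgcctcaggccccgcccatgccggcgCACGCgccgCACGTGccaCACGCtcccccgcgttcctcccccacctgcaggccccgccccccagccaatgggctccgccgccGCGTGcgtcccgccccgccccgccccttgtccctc
The Vegfa window held no core, and a window at a second, downstream start of Vegfa held 2. Vegfa counts among the 8 genes with a core through that second window alone. That window lies downstream of the first start, and whether it acts as a promoter was not tested. Epo had 2 cores, both GCGTG on the opposite strand, 236 to 240 and 200 to 204 bases before the start. Egln3 had a single ACGTG at 225 to 229 bases. Bnip3 had 5, of which 2 are the same palindrome CACGTG read from either side, and Ankrd37 had 4, while 2.58% of all windows had 4 or more. Hif1a had 3, Adm 2 and Car9 1. These are matches of letters in a window, not sites shown to be bound.

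None of the 10 genes passed the test after adjustment, and 9 of them could be measured. Ratios are given as log2 of the DEP channel over the control channel, with the standard deviation (SD) over arrays. The direction rests on the labels. The study's text places erythropoietin and the glutamate transporter gene Slc1a2 among the genes that rose after exposure. The probe of Epo was not above background and gives no direction to set against that, but the brightest probe of Slc1a2 could be measured on all arrays and ran the other way, with a mean log2 ratio of -1.61 ± 0.98 (limma adjusted p = 0.167) and the DEP channel lower on 4 of 4 arrays. Slc1a2 is an astrocyte gene, and markers of brain tissue were mostly lower too. Of 9 astrocyte genes, a list that also holds Slc1a2, 8 were lower, at a median of -0.74. Of 12 neuronal genes 12 were lower, at -0.96, and of all genes 44.7% were. The part of brain tissue in the Slc1a2 value was not tested. The directions that the study gives for its other genes were not compared here. If the labels name the channels the wrong way round, every sign given here turns. A probe's level was read as measured where the scanner software called it well above background, and the brightest probe stands for its gene. A probe read so in both dyes of each of the 4 arrays is called fully measured here. This held for 15 of the 16 probes, and the exception was the probe of Epo. Of 12 markers of airway-type epithelium, which lines the middle ear, 11 were fully measured. Without Epo the mean log2 ratios ran from -0.35 (Ndrg1) to 0.35 (Egln3), with a median of -0.04 over the 9 genes against 0.04 over all 17962 genes tested. In the fit of limma, 0 of 10 genes had an adjusted p under 0.05, and neither had any of all genes (0%). The lowest adjusted p among all genes was 0.0922 and the members' adjusted p ran from 0.189 to 0.984. Of the 10 genes, 1 had an unadjusted p under 0.05, against a background of 16.7% of all genes (9.18% higher and 7.5% lower in the DEP channel), and that gene was Epo, whose signal was not above background. A mean ratio past 2-fold was likewise found for Epo alone, against 6.21% of all genes, and for 0 of the 9 measured genes, against 3.55% of the 14281 fully measured genes.

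The direction was mixed. The mean ratio was below 0 for 7 of the 10 genes, or 6 of the 9 measured ones, against 44.7% of all genes and 44.3% of the fully measured ones. With normexp correction and each array centred on its median, it was below 0 for 2 of the 10, and for 19.5% of the fully measured genes, whose median that setting raised from 0.04 to 0.28. Of 9 genes with 4 ratios, 1 (Ndrg1) had the same sign on all arrays, against 27.4% of all genes with 4 ratios. In none of the 10 did the 4 DEP signals lie wholly above or below the 4 control signals, against 2.86% of all genes. The spread was wide for most of them. The SD between arrays ran from 0.23 (Vegfa and Hif1a) to 0.55 (Ankrd37), with a median of 0.43, while the median over all fully measured genes was 0.29. The 95% intervals around the 9 mean ratios, not adjusted for the number of probes, reached 0.34 to 0.61 to either side. A mean smaller than that could not be told from 0 for the gene concerned even before adjustment. A larger one need not pass the adjusted limit, which none of all genes tested passed. With 4 ratios an exact two-sided sign-flip test, of a ratio or of the difference between a pair of probes, cannot give a p below 0.125.

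**Figure D1:**
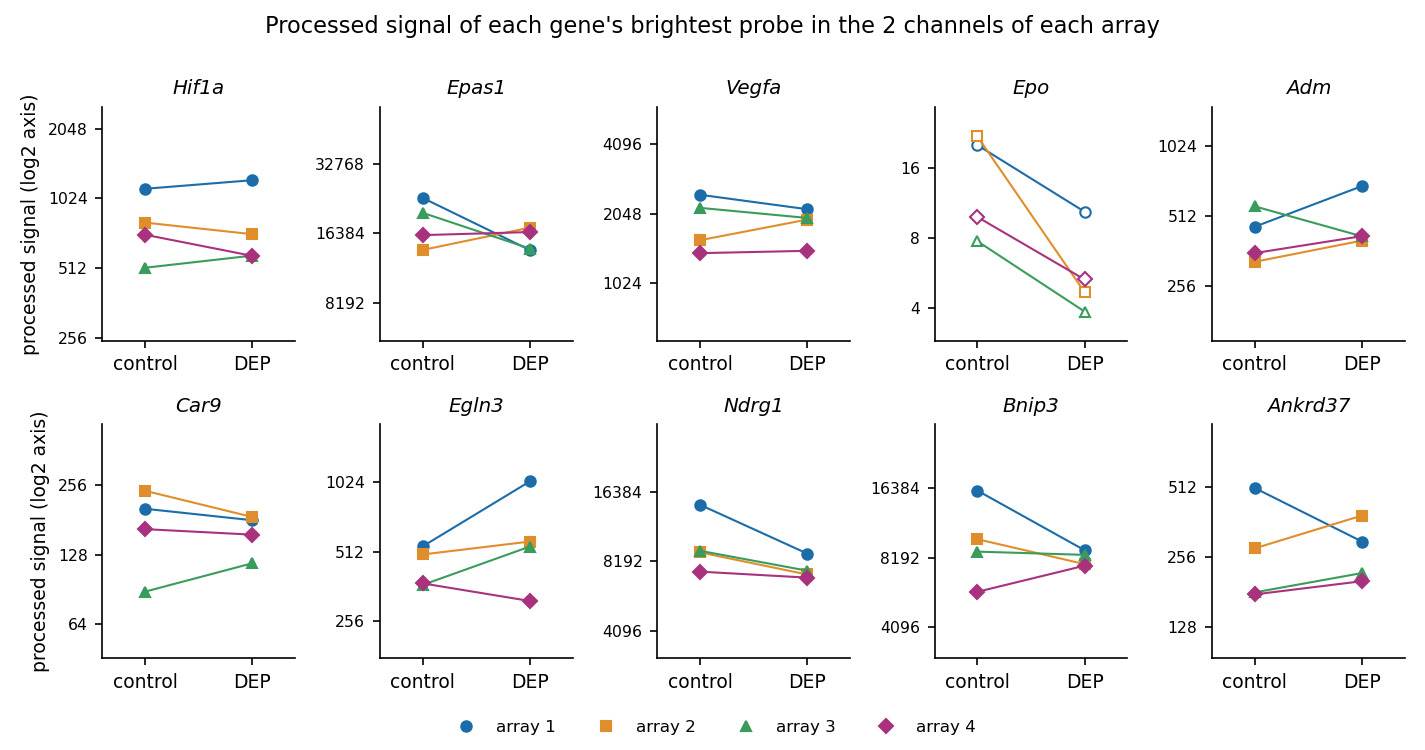
Processed signal (background-subtracted and dye-normalised, log2 axis) of each gene's brightest probe in the control and the DEP channel, with a line joining the 2 channels of an array. Each panel spans the same fold range. Open symbols mark a probe not well above background (Epo). The lines slope both ways in all panels but those of Epo and Ndrg1, where the DEP signal is the lower one on each array.

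**Figure D2:**
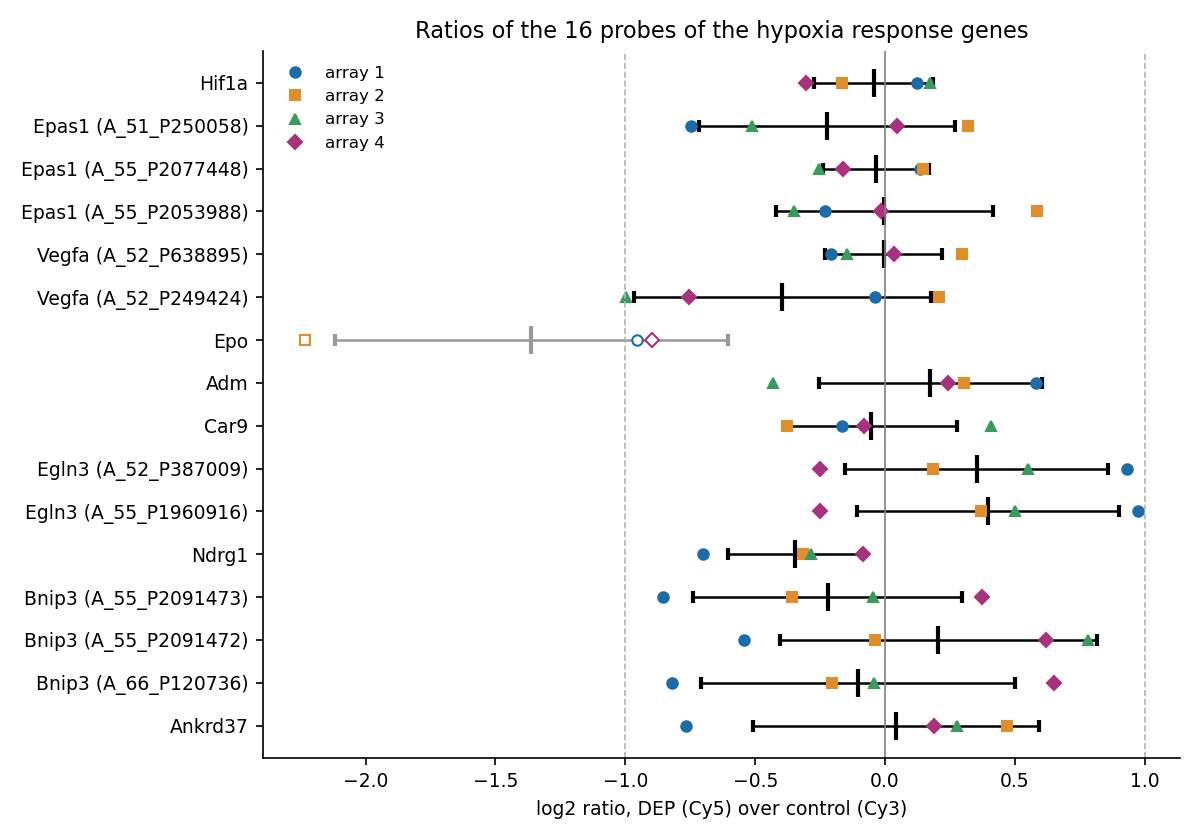
Log2 ratio of DEP over control for each of the 16 probes on each array (symbols), with the mean (long tick) and SD (bar) over arrays, and dashed lines at 2-fold. Grey bar and open symbols mark Epo, whose probe was not well above background and gave 3 ratios. The bars of all other probes but Ndrg1 cross 0.

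No difference was detected in the transcription factors. Hif1a, which encodes the alpha subunit that nearly all cells use, had DEP signals of 1226, 717, 579 and 578 on arrays 1 to 4 and control signals of 1126, 804, 514 and 713. It was higher in the DEP channel on arrays 1 and 3 and lower on arrays 2 and 4, and the ranges overlap. The mean log2 ratio was -0.04 ± 0.23 (SD, n = 4), with a 95% interval from -0.38 to 0.30 and a limma adjusted p of 0.875. Epas1 encodes the alpha subunit known as HIF-2 alpha, which is prominent in endothelium. Its brightest probe (A_51_P250058) gave DEP signals of 13882, 17346, 14092 and 16603 and control signals of 23321, 13894, 20104 and 16103. On arrays 1 and 3 the control signal was clearly the higher one, with log2 ratios of -0.75 and -0.51, whereas array 2 gave 0.32 and array 4 gave 0.04. The mean was -0.22 ± 0.49 (adjusted p = 0.593), and -0.049 without array 1. The other 2 probes of Epas1 had means of -0.03 ± 0.20 and -0.002 ± 0.42. The 3 probes were farthest apart on array 1, where they gave -0.75, 0.13 and -0.23, and the difference between the first pair was 0.88 there against a mean absolute difference of 0.38 over the 4 arrays.

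Epas1 shares with Bnip3 the largest number of fully measured probes, with the tie settled by signal, and the genes with the most similar ratios were looked up for it. The nearest by Euclidean distance over the 4 ratios, among 14266 genes, were Acvr1c (0.140), Pygl (0.170), Acss1 (0.240), Fbn2 (0.256) and Igfbp5 (0.269), while the median gene was at 1.15. Acvr1c encodes an activin receptor, Pygl glycogen phosphorylase, Acss1 a mitochondrial acetyl-CoA synthetase, Fbn2 a fibrillin of the matrix and Igfbp5 a binding protein of insulin-like growth factors. All 5 were highest on array 2, as Epas1 was, and their ratios on array 1 ran from -0.92 (Pygl) to -0.53 (Igfbp5). With 4 arrays, such nearness is a description only.

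Vegfa encodes the growth factor that drives vessel growth and leakiness. Its brighter probe (A_52_P638895) gave DEP signals of 2138, 1928, 1960 and 1413 and control signals of 2468, 1571, 2167 and 1381. Neither channel was the higher one throughout, with log2 ratios of -0.21, 0.30, -0.14 and 0.03. The mean was -0.01 ± 0.23 (95% interval -0.34 to 0.33, adjusted p = 0.984), which is the smallest change and the highest p of the 10 genes. A probe made to another transcript record of Vegfa (A_52_P249424) gave DEP signals of 462, 342, 376 and 257 against control signals of 474, 297, 751 and 433. On this one the control channel was higher on arrays 3 and 4, with log2 ratios of -0.998 and -0.754, and close to or below the DEP channel on arrays 1 and 2 (-0.04 and 0.21). Its mean of -0.40 ± 0.57 had an adjusted p of 0.421 and was -0.20 without array 3. The probes thus lay 0.85 and 0.79 apart on arrays 3 and 4 and within 0.17 of each other on arrays 1 and 2. Over the 4 arrays the difference was 0.39 ± 0.51. Which transcript forms each probe reads was not tested.

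Epo encodes erythropoietin, the hormone that keeps red cell precursors alive and which the adult makes mainly in the kidney. Its only probe was never called well above background, so these arrays give no level and no fold for it. The processed signals were 10.4, 4.68, 3.86 and 5.31 in the DEP channel and 20.2, 22.0, 7.76 and 9.87 in the control channel. Both sets lie at or near the floor, since the lowest signals called well above background were 15.997 to 31.113 in Cy5 and 20.8 to 36.5 in Cy3. The control signal was the larger on each array, and the software gave log2 ratios of -0.96, -2.23 and -0.90 on arrays 1, 2 and 4 and none on array 3. The mean of these 3 was -1.36 ± 0.76 (limma adjusted p = 0.189), and it was -0.24 with normexp background correction and loess. Before subtraction the spot read 84.5, 71, 76 and 71 in Cy5, where 6, 84, 12 and 43 of the 153 negative control spots were brighter. In Cy3 it read 96.5, 88.5, 94 and 80, and 0, 3, 5 and 7 of the 153 were brighter. The spot thus lay near the middle of the negative controls in the red dye on array 2, above most of them in that dye on the other arrays, and near their upper end in the green dye. Of 6 kidney markers, 1 was fully measured, and Umod, Nphs1 and Kap were not above it anywhere.

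Adm encodes adrenomedullin, a peptide that widens vessels and tightens the endothelial barrier. DEP signals were 689, 401, 418 and 419 and control signals 460, 325, 563 and 354. The DEP channel was higher on arrays 1, 2 and 4 (log2 ratios 0.58, 0.30 and 0.24) and lower on array 3 (-0.43). The mean of 0.17 ± 0.43 had an adjusted p of 0.641, and it was 0.039 without array 1 and 0.38 without array 3. In the DEP channel array 1 stood above the other 3, and in the control channel array 3 was the highest.

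Of the enzymes, Egln3 had the highest mean ratio of the 10 genes. It encodes a prolyl hydroxylase that marks HIF alpha subunits for destruction and is itself a target of HIF, so that it feeds back on the pathway. DEP signals were 1031, 567, 539 and 314 and control signals 540, 499, 368 and 374. The DEP channel was higher on arrays 1, 2 and 3 (log2 ratios 0.93, 0.19 and 0.55) and lower on array 4 (-0.25). The mean was 0.35 ± 0.51 (95% interval -0.21 to 0.92, adjusted p = 0.426). Without array 1 it was 0.16, and that of Ankrd37, at 0.31, was then higher. A second probe of Egln3 gave 0.97, 0.37, 0.50 and -0.25, with a mean of 0.40 ± 0.50 (adjusted p = 0.380). The 2 probes differed by 0.07 on average in absolute size, the closest of the 8 probe pairs, so the differences between arrays were seen alike by both. Once each array's median signal is divided out, the control channel of this gene varied little between arrays (SD 0.13 on the log2 scale) and the DEP channel much more (SD 0.47).

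Car9 encodes carbonic anhydrase 9, a membrane enzyme that hydrates carbon dioxide outside the cell and is often used as a stain for low oxygen. DEP signals were 180, 186, 117 and 156 and control signals 202, 241, 88.6 and 165. The DEP channel was lower on arrays 1, 2 and 4 and higher on array 3, where the log2 ratio was 0.41. The mean was -0.05 ± 0.33 (adjusted p = 0.873).

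The other targets had mean ratios of both signs. Ndrg1 encodes a stress-responsive protein of many epithelia and of Schwann cells and is a widely used HIF target. DEP signals were 8853, 7188, 7467 and 6967 and control signals 14377, 8956, 9095 and 7394. The DEP channel was the lower one on all 4 arrays, by 0.70, 0.32, 0.28 and 0.09 on the log2 scale, although the ranges of the channels overlap. The mean of -0.35 ± 0.26 (95% interval -0.70 to 0.01) had an adjusted p of 0.280, and it was -0.23 without array 1. When arrays were instead centred on their median after normexp correction, Ndrg1 had a ratio of 0.15, at a setting that placed the median measured gene at 0.28 rather than 0.04.

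Bnip3 encodes a mitochondrial protein that marks mitochondria for autophagy when oxygen is low. Its brightest probe (A_55_P2091473) gave DEP signals of 8830, 7687, 8429 and 7566 and control signals of 15970, 9850, 8704 and 5835. The control signals spanned a wider range than the DEP signals, and the log2 ratio went from -0.85 on array 1 through -0.36 and -0.05 on arrays 2 and 3 to 0.37 on array 4. The mean was -0.22 ± 0.52 (adjusted p = 0.611), and -0.0098 without array 1. A second probe, A_55_P2091472, had a mean of 0.21 ± 0.61 (0.014 without array 3) and the faintest, A_66_P120736, one of -0.10 ± 0.60. The first 2 probes differed in the same direction on all 4 arrays, by 0.43 ± 0.27, with the largest gap of 0.83 on array 3. The sign of the Bnip3 mean thus depends on the probe.

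Ankrd37 encodes a small ankyrin repeat protein whose transcript rises in many cells at low oxygen. DEP signals were 299, 387, 219 and 202 and control signals 509, 280, 180 and 177. The DEP channel was higher on arrays 2, 3 and 4 (log2 ratios 0.47, 0.28 and 0.19) and clearly lower on array 1 (-0.77). The mean of 0.04 ± 0.55 had the widest SD of the 9 measured genes and an adjusted p of 0.933.

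The spread sat more often in the control channel. After division by each array's median signal, the control channel varied more between arrays than the DEP channel for 7 of the 9 measured genes, against 57.4% of all 14281 measured genes. The exceptions were the brightest probes of Epas1 and Egln3. For the brightest probe of Bnip3 the SD of the log2 signal was 0.37 in the control and 0.21 in the DEP channel, and for Adm it was 0.43 and 0.17. The Bnip3 probe A_55_P2091472 ran the other way, with 0.36 in the control and 0.44 in the DEP channel. Of the 15 measured member probes, 11 varied more in the control channel. Over all measured genes the median SD was 0.22 in the control and 0.19 in the DEP channel.

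Genes that work around the 10 were read from 7 lists, and 87 of their 88 genes were tested. None had an adjusted p under 0.05. At an unadjusted p under 0.05, 3 were higher (Kdm3a, Siah2 and Vegfd) and 5 were lower (Aldoc, Kdr, Pfkl, Pfkp and Pgam1), which is 8 of 87 against the 16.7% of all genes given above and 12.5% of the fully measured genes. The median over the 87 genes was -0.02, against 0.04 over all genes. Past 2-fold were Aldoc and Ndrg4, 2 of 87, against the 6.21% of all genes and 3.55% of the fully measured genes given above. With normexp correction and median centring, which raised the ratios of most genes, 15 of the 87 (17.2%) had an adjusted p under 0.05, Siah2 and Kdm3a among them, and so did 12.4% of all genes.

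**Figure D3:**
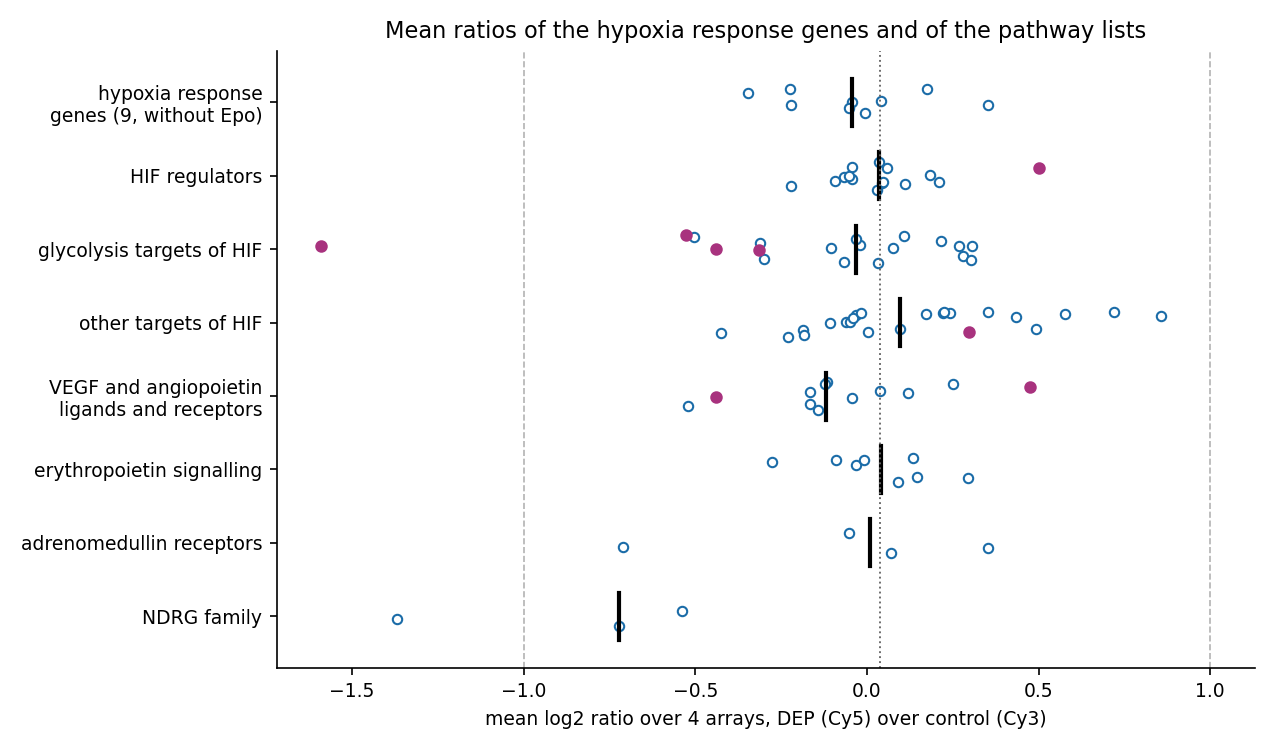
Mean log2 ratio over arrays of each fully measured gene (circles), by list, with the median of the list (black tick), the median of all genes tested (dotted line, 0.04) and 2-fold (dashed lines). Filled circles had an unadjusted p under 0.05. All lists but the NDRG family have genes on both sides of 0.

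Regulators of the HIFs had a median of 0.03 over 16 genes, 9 higher and 7 lower. With normexp correction and median centring that median was 0.30, where the median fully measured gene was at 0.28. Siah2, a ubiquitin ligase that destroys prolyl hydroxylases, was higher on all 4 arrays, with log2 ratios of 0.58, 0.32, 0.74 and 0.36. Its mean of 0.50 ± 0.20 (limma adjusted p = 0.170) was the highest of the list. Hif1an, which hydroxylates HIF on an asparagine, had a mean of 0.21 ± 0.11 (adjusted p = 0.348, higher on 4 of 4 arrays). Elob, a subunit of the von Hippel-Lindau complex, had -0.22 ± 0.18 and Egln2, another prolyl hydroxylase, -0.09 ± 0.13, and both were above 0 with median centring.

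The glycolysis targets had a median of -0.03 over 19 genes (0.52 with normexp correction and median centring, where the median fully measured gene was at 0.28), 8 higher and 11 lower, and 4 of them were lower at an unadjusted p under 0.05, where 7.5% of all genes were. Aldoc, the aldolase of brain, where astrocytes carry it, had the lowest mean, -1.59 ± 1.504 (adjusted p = 0.259), with ratios of -2.63, -3.10, -0.60 and -0.03. The phosphofructokinase genes Pfkl and Pfkp had means of -0.53 ± 0.40 and -0.44 ± 0.24, and the mutase Pgam1 had -0.31 ± 0.18. With normexp correction and median centring, Pgam1 was above 0 (0.30) and Pfkp close to it (-0.036), while Pfkl was at -0.24 and Aldoc at -0.92. At the upper end stood Slc16a3, which exports lactate, with 0.31 ± 0.21, and Pfkfb3, which drives phosphofructokinase, with 0.30 ± 0.30.

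Among 23 other targets of HIF, with a median of 0.10, Kdm3a passed the unadjusted limit. It encodes a histone demethylase and was higher on 4 of 4 arrays (0.30 ± 0.10, adjusted p = 0.245). Insig2, which restrains sterol synthesis, had the highest mean of the list, 0.86 ± 1.51, and Ero1a, an oxidase of the endoplasmic reticulum, had 0.72 ± 0.80. Without array 1 these were 0.24 and 0.47, so the order of the 2 rests on that array. Plod2, a lysyl hydroxylase for collagen, had -0.43 ± 0.59 and Vldlr, a lipoprotein receptor, -0.23 ± 0.55 (0.16 with median centring), neither beyond the spread between arrays. With an array left out, Plod2 ran from -0.64 to -0.22 and Vldlr from -0.40 to -0.0075.

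The partners of Vegfa split by member. Of 13 VEGF and angiopoietin ligands and receptors 9 were lower and 4 higher, with a median of -0.12 that was 0.0041 without array 3. The list median was 0.098 with normexp correction and median centring, where the median fully measured gene was at 0.28. Kdr, the main signalling receptor for the Vegfa protein, gave -0.06, -0.27, -0.81 and -0.61 and was thus lower on all arrays, with a mean of -0.44 ± 0.34 (adjusted p = 0.257). Flt1, which binds the same ligand and acts largely as a decoy, gave -1.05, 0.08, -0.67 and -0.45, with a mean of -0.52 ± 0.47 (adjusted p = 0.278). Vegfd, a ligand for lymphatic vessels, was higher on all arrays, with 1.02, 0.51, 0.16 and 0.21 and a mean of 0.48 ± 0.39 (adjusted p = 0.264). The co-receptor Nrp1 had 0.25 ± 0.38. With normexp correction and median centring, Kdr was at -0.073 and Flt1 at -0.093, whereas Vegfd was at 0.44. The 10 endothelial markers, a list that also holds Kdr, had a median of -0.09, and medians of -0.14, 0.12, -0.38 and -0.03 on the 4 arrays. Their summed signal ran from 21522 to 27995 in the DEP channel and from 21500 to 32539 in the control channel, all 10 were well above background, and their part in the receptor values was not tested.

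Signalling below erythropoietin was measurable, unlike the hormone. All 8 genes of that list were well above background, 4 were higher and 4 lower, and the median was 0.04. Epor, the receptor, gave -0.86, 0.40, 0.09 and 0.01, with a mean of -0.09 ± 0.54 (adjusted p = 0.847), which was 0.29 with median centring. The array medians of 10 erythroid markers were -0.78, 0.45, 0.40 and 0.23, again with array 1 alone below 0. Their summed signal ran from 551986 to 660383 in the DEP channel and from 407637 to 902152 in the control channel, and all 10 were well above background. Among the members and pathway genes named, Ankrd37, Epor and Cish had the same order of arrays as these medians. That order was found in 3.02% of 14275 measured genes. Cish, at -0.56, 0.33, -0.34 and -0.53, was however below 0 on 3 of the 4 arrays. The part of red cell precursors in these genes was not tested. Socs2 and Cish, both brakes on the pathway, had 0.29 ± 0.54 and -0.28 ± 0.42, and Stat5b, the transcription factor it activates, 0.14 ± 0.37. With an array left out, Socs2 ran from 0.11 to 0.49 and Cish from -0.48 to -0.18. Stat5b then ran from 0.029 to 0.30 and Epor from -0.25 to 0.165.

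For adrenomedullin, the accessory proteins that shape its receptor were spread around 0. Ramp3 had a mean of -0.71 ± 0.97, Ramp1 of -0.05 ± 0.32 (0.37 with median centring) and Ramp2 of 0.07 ± 0.32. The scavenger receptor Ackr3 had 0.35 ± 0.37, and the lowest adjusted p of the 5 genes was 0.344. With an array left out, Ramp3 ran from -1.07 to -0.43 and Ackr3 from 0.21 to 0.51. Ramp1 then ran from -0.19 to 0.019 and Ramp2 from -0.050 to 0.17, so neither kept its sign.

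All 3 relatives of Ndrg1 had a mean below 0, with the exception that Ndrg2 was at 0.13 when arrays were centred on their median. Ndrg4 gave -3.16, -1.64, -1.22 and 0.54, with a mean of -1.37 ± 1.52 (adjusted p = 0.303). Ndrg3 and Ndrg2 had means of -0.72 ± 0.73 and -0.54 ± 0.76. With an array left out, Ndrg4 ran from -2.01 to -0.77, Ndrg3 from -0.98 to -0.47 and Ndrg2 from -0.81 to -0.29. Each was nearest to 0 without array 1. Ndrg4 and Ndrg2 are known for their expression in neurons and astrocytes. For all 3, and for Ndrg1 and Bnip3, array 1 gave the lowest ratio, followed by arrays 2, 3 and 4. For Bnip3 this holds for the brightest probe and for A_66_P120736, while A_55_P2091472 gave -0.54, -0.04, 0.78 and 0.62 and was thus highest on array 3. Of 14275 genes measured on all arrays, 14.4% had this order. Array 1 gave the lowest ratio for 41.1% of these genes and the highest for 31.4%. Ratios were also more spread on it, with an SD over measured genes of 0.95, 0.55, 0.50 and 0.47 on arrays 1 to 4.

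**Figure D4:**
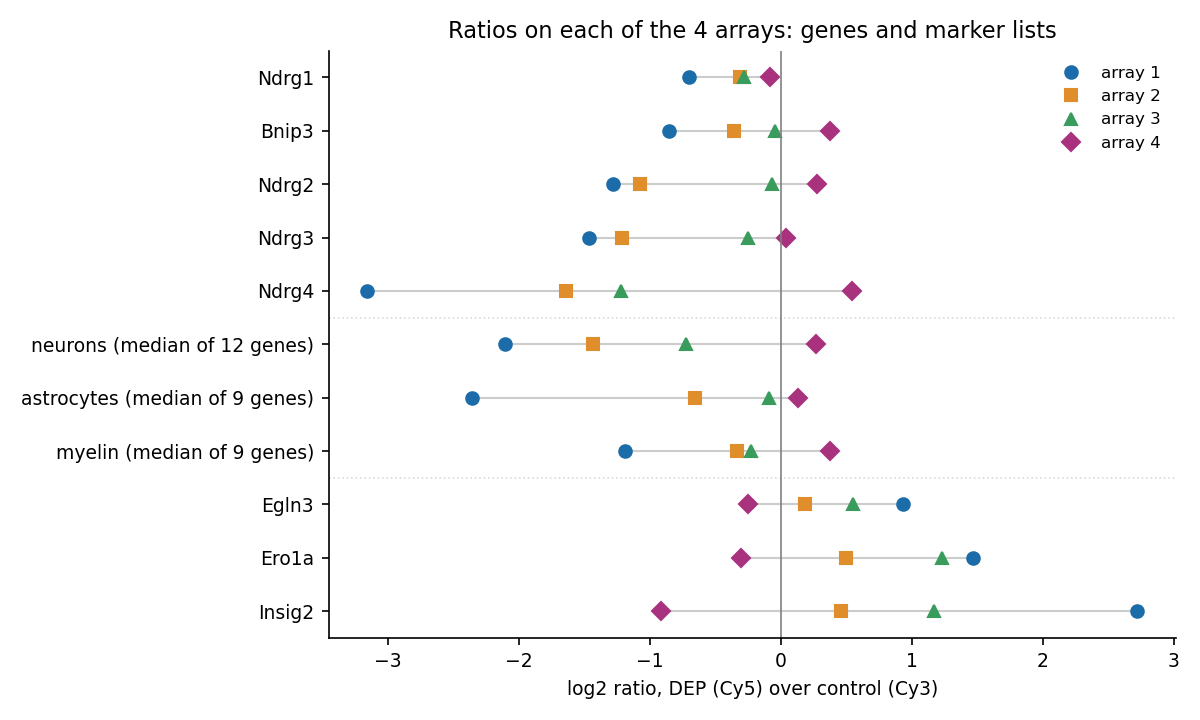
Log2 ratio on each array (symbols) for the NDRG family and Bnip3, for the medians of 3 lists of nervous system markers, and for Egln3, Ero1a and Insig2, each joined by a grey line from lowest to highest. Array 1 is lowest and array 4 highest in the upper 8 rows, and the reverse in the lower 3.

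Of the 11 marker lists, 5 had the same order of arrays, namely those of neurons, astrocytes, myelin, skeletal muscle and macrophages. The medians on arrays 1 to 4 were -2.11, -1.43, -0.72 and 0.27 for 12 neuronal genes, -2.36, -0.66, -0.10 and 0.13 for 9 astrocyte genes and -1.20, -0.33, -0.23 and 0.38 for 9 myelin genes. All 12 neuronal, 9 of 9 astrocyte and 8 of 9 myelin genes were fully measured. Their summed signals ran from 25282 to 37609 in the DEP channel and from 28702 to 101655 in the control channel for the neuronal list. The ranges were 34050 to 51581 and 43496 to 92371 for the astrocyte list, and 30169 to 31878 and 24727 to 104563 for the myelin list. The medians of 10 muscle genes were -0.85, -0.54, 0.73 and 0.76 and those of 6 macrophage genes -0.20, -0.07, 0.44 and 0.68, and all of these genes were fully measured. Their summed signals ran from 281840 to 567244 in the DEP channel and from 255776 to 954913 in the control channel for muscle, and from 17018 to 22256 and from 14298 to 24689 for macrophages. Egln2, Slc16a3, Pgam1, Vldlr, Stat5b, Ramp3 and Ackr3 of the pathway lists also shared this order, and Aldoc did not. The part of any of these tissues in the values of Ndrg1, its relatives and Bnip3 was not tested.

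Egln3, Ero1a and Insig2 shared another order, with array 1 highest, then arrays 3, 2 and 4. Ero1a gave 1.47, 0.49, 1.23 and -0.31 and Insig2 gave 2.72, 0.46, 1.17 and -0.92. This order was found in 8.61% of the 14275 genes. Across all probes, the ratios of arrays 1 and 4 had a Pearson correlation of -0.22, while arrays 1 and 2 had 0.61, as a description of arrays that share a slide and a dye orientation. For the 9 measured genes the median log2 ratio on arrays 1 to 4 was -0.21, 0.19, -0.05 and 0.03, and the number of them that were higher in the DEP channel was 3, 5, 4 and 5.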

How the data were processed

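The authors scanned the arrays and quantified spots with Agilent Feature Extraction 10.10.1.1, on 1 slide in 1 scan. The deposited intensities are background-subtracted, spatially detrended and dye-normalised within an array. The deposited log10 ratios divide Cy5 by Cy3 and are 0 where the software gave none, and the authors' table of log10 ratios served as an alternative. The study's text gives p-values for several genes, but no test is named in the sources used here. The study used a fold limit of 2.

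Ratios were turned to the log2 scale. Flagged spots (164 to 274 per array) and those with no ratio were dropped, repeat spots were averaged, and probes with at least 3 ratios were kept. The RefSeq table of GRCm38.p6 gave a gene symbol to 27655 of 39429 probes by accession. An intercept was fitted with limma 3.58.1 in R 4.3.3 (lmFit, eBayes, prior degrees of freedom 1.98), and p-values were adjusted after Benjamini-Hochberg over all 31577 probes. Between 59.2% and 68.9% of probes were well above background per channel and array, and the number of arrays limits the precision. Tables were made with numpy 2.4.6 and pandas 2.3.3 in Python 3.11.15, and figures with matplotlib 3.10.9.

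The members, the 7 pathway lists and the 11 marker lists were chosen with earlier results of these data known. From each pathway list the 2 genes with the highest and the 2 with the lowest mean ratio among fully measured probes were named, and genes counted at an unadjusted p under 0.05 were named too. The 5 genes nearest to the member with the most measured probes were also named. Alternatives were normexp (offset 50, on median spot signals, as mean ones are not in the files used) with loess or with centring on the median, the deposited ratio table, filters on dim spots, keeping flagged spots, an intensity trend, ordinary least squares, the mean of a gene's probes, 2-fold on every array, and leaving out each array. Leaving out Epo was added after the data were seen.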

Additional observations from a re-analysis of the deposited data

Results flagged for a closer look

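In 3 of 75 sets of 4 values tested (log2 signals of each channel for the measured member probes, and log2 ratios of these and of the pathway genes named), 1 array stood apart from the other 3 by the limit of Dixon's test for 4 values, which flags about 1 set in 20 by chance. On array 1 the control signal of the Epas1 probe A_55_P2077448 was 11.36 on the log2 scale, against 11.0 to 11.04 on the others. Also on array 1, the DEP signal of Adm was 9.428, against 8.646 to 8.71. On array 4 the DEP signal of the Bnip3 probe A_66_P120736 was 6.722, against 6.99 to 7.001. The median signal was 162 on array 1 in Cy5 and 161 in Cy3, and 108 to 124 on the others, and these values were not divided by it. No ratio tested was set apart in this way.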

How the results depend on the processing

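No member probe had a limma adjusted p under 0.05 in any of the 190 values from 12 alternatives, of which the lowest was 0.0661 (Epo with median centring), but 22 of the values, in 10 of the 16 probes, had another sign than the reported one. Normexp with median centring turned Hif1a to 0.18, Epas1 to 0.29 (A_51_P250058), 0.28 (A_55_P2077448) and 0.18 (A_55_P2053988), Vegfa A_52_P638895 to 0.32, Ndrg1 to 0.15 and Bnip3 A_55_P2091473 to 0.30, at a median of 0.277 over the 14281 measured genes, which was 0.0351 with the deposited ratios. It left 19.5% of these genes below 0 and 42.5% at an unadjusted p under 0.05. Normexp with loess turned Epas1 A_55_P2053988 to 0.0175 and Ankrd37 to -0.00471. Leaving out 1 array at a time gave -0.115 to 0.0435 for Hif1a, -0.0940 to 0.0395 for Epas1 A_55_P2077448, -0.20 to 0.11 for Epas1 A_55_P2053988, -0.106 to 0.0614 for Vegfa A_52_P638895, -0.207 to 0.0544 for Car9, -0.36 to 0.13 for Bnip3 A_66_P120736 and -0.10 to 0.31 for Ankrd37, so none of these means has a settled direction. The number of member genes below 0, 7 as reported, was 2 with median centring, and their median was then 0.24. The number past 2-fold, 1 as reported (Epo), was 0 with normexp and either loess or median centring, with spots kept where both channels or 1 channel were well above background, with 2-fold required on every array and without Epo, and it ran from 0 (without array 2) to 1 with an array left out. The number at an unadjusted p under 0.05 was 1 as reported, 4 with median centring, 2 with an intensity trend, 0 with ordinary least squares and 0 without Epo, and it ran from 1 to 2 (without array 4) with an array left out. For the pathway lists that number was 8 as reported, 18 with loess, 41 with median centring and 15 with an intensity trend, where 16.7%, 16.9%, 38.9% and 18.1% of all genes passed. It ran from 4 (without array 2 or array 3, where 8.61% and 9.86% of all genes passed) to 12 (without array 4, where 18.4% did). With median centring, 15 of the 87 genes had an adjusted p under 0.05, against 12.4% of all genes, and among the genes named these were Siah2 (0.0456), Kdm3a (0.0369), Slc16a3 (0.0406) and Pfkfb3 (0.0447). The medians of 6 of the 7 lists moved with median centring, to between 0.10 and 0.52, and that of the NDRG family was -0.35 there. With an array left out, the list medians ran from -0.0033 to 0.037 (HIF regulators), -0.12 to 0.050 (glycolysis), 0.0056 to 0.16 (other targets), -0.11 to 0.0041 (VEGF and angiopoietin), 0.027 to 0.14 (erythropoietin signalling), -0.050 to 0.091 (adrenomedullin receptors) and -0.98 to -0.47 (NDRG family). The cause of these shifts was not tested. Every ratio is taken within an array, so the reported fit is itself paired by array and no further block was fitted. Without array 1 the mean of Egln3 was 0.16, against 0.35 as reported.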
